A study of Mus musculus with 12 samples.

Results

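The transcriptome described here is that of blood neutrophils from the control group of a study whose title concerns loss of the Y chromosome in blood-forming cells, cardiac fibrosis and heart failure. Its members are the 6 libraries labelled Control, numbered 1, 2, 6, 12, 17 and 18, of 12 libraries in the series. The other 6, from the group named LOY, are not used. Each control sample carries the genotype label Control and comes from mice of the control bone marrow transplant arm, and the label of treatment is also Control. The labels used here give neither the age and strain of the mice nor what the control cells carried. They also do not say whether the libraries stem from different mice, so the spread between them may be technical. Neutrophils were taken from blood as 10000 sorted cells positive for Ly6G and for the red fluorescent protein RFP and negative for CD115, the receptor encoded by Csf1r that marks monocytes. RNA was turned into full-length cDNA and amplified with the SMART-Seq v4 kit, which does not mark strand.

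Neutrophils are short-lived phagocytes that are made in bone marrow, circulate in blood and enter tissue along gradients of chemoattractants. Their granule proteins are made in sequence during maturation in the marrow, primary granules first, then secondary and gelatinase granules, so a mature blood cell stores many proteins whose transcripts it has stopped making. They are known for the calcium-binding S100A8 and S100A9 proteins of the cytosol, for an oxidase that makes superoxide and for a small RNA content.

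The deposited table lists 11494 genes, and in these genes the control libraries held between 13743581 reads (Control 2) and 18459792 reads (Control 12). Each share of reads below is a part of the reads in listed genes, not of all reads sequenced. All listed genes have a mean of 8.63 normalized reads or more over the 12 libraries of the series, so genes under that level were not analysed here. Spearman correlations between control libraries, across genes, ranged from 0.759 to 0.877 over 15 pairs, and the 3 pairs among Control 6, 17 and 18 lay between 0.872 and 0.877. Control 1, 2 and 12 had the most listed genes at 0, between 1994 and 2489 each, against 1072 to 1272 in Control 6, 17 and 18. Control 12 was closer to the rest in other measures. Over genes with a mean of 500 normalized reads or more, its correlation was 0.881 with Control 6, 0.822 with Control 17 and 0.833 with Control 18. It was 0.790 with Control 1 and 0.726 with Control 2. The pairs among Control 6, 17 and 18 lay higher or close, between 0.870 and 0.896. Of those genes, 4 had under 10 normalized reads in Control 12, against 37 in Control 1 and 45 in Control 2. A gene at 0 in a library can still be present at up to 3 reads there, counting error alone considered. Of the listed genes, 7475 (65.0%) were above 0 in all 6 libraries, 3923 in 1 to 5 of them and 96 in none.

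Reads were concentrated in few genes. The mean of a listed gene had a median of 174 normalized reads, with quartiles of 37.2 and 709, and the highest mean, that of S100a8, was 4408 times that median. A set of 195 genes held 50% of the reads, 2540 genes held 90% and 6798 held 99%. Means of 10000 or more were reached by 278 genes. Protein-coding genes held 97.7% ± 0.0600 of the reads (SD, n = 6, as for each share below), and the long intergenic RNAs, led in reads by the nuclear transcript Malat1 and its neighbour Neat1, held 0.832% ± 0.0476. Malat1 ranged from 39746 to 63408 normalized reads, with Control 2 the highest, and Neat1 from 19714 to 33042, with Control 2 the lowest.

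The share of the leading genes differed between libraries mainly at the very top of the order. The first 2 genes held 8.0% ± 1.79 of the reads, from 5.70% in Control 17 to 10.5% in Control 2. The first 10 held 16.3% ± 2.14, from 13.4% to 19.1%, the first 100 held 39.6% ± 1.93 and the first 1000 held 76.6% ± 0.966. By level per kilobase of exon, defined next, the first 10 genes held 40.8% ± 4.57 of the total.

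**Figure D1:**
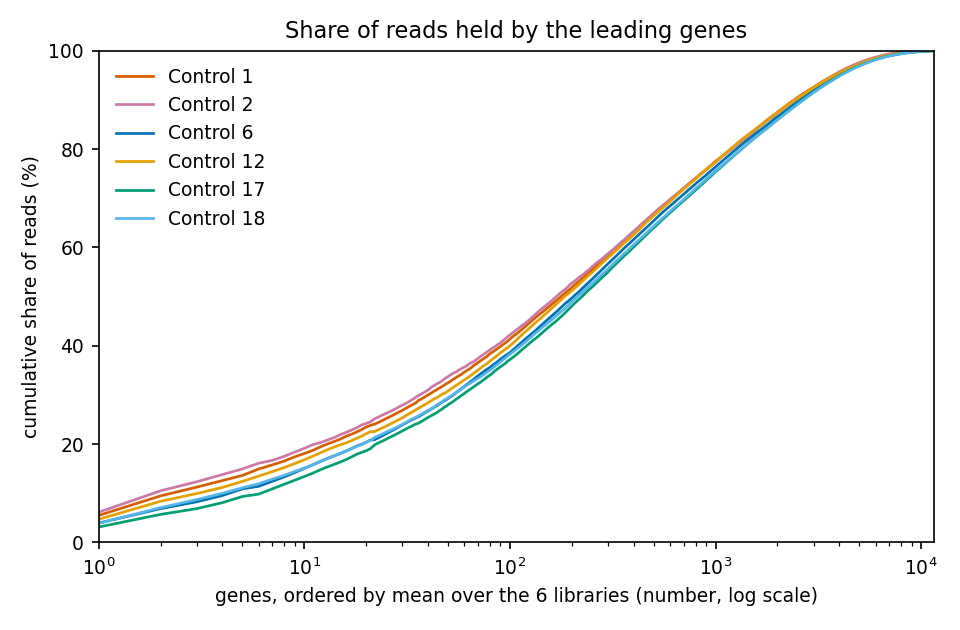
Cumulative share of a library's reads (y axis, percent) against the number of genes taken in order of their mean over the 6 control libraries (x axis, log scale), with 1 line per library. The lines lie furthest apart over the first genes, with Control 2 on top and Control 17 at the bottom, and come together towards the end.

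Levels of different genes were compared per length: the deposited normalized reads were divided by the merged exon length in kilobases (GENCODE vM21, GRCm38) and scaled to a total of 1000000 over the listed genes in each library. This is the level meant in the text below wherever a level per kilobase is given. The leading pair were S100a9 and S100a8, which encode the subunits of calprotectin, a protein that binds calcium and zinc. The level per kilobase of S100a9 had a lowest, median and highest value of 108912, 133936 and 151474, with a mean of 132384 ± 16695 (SD, n = 6). That of S100a8 had a lowest, median and highest value of 99762, 127391 and 160376, with a mean of 130894 ± 23045. The ranges of the pair overlap almost wholly, so their order is not settled by these libraries. Both genes were highest in Control 2 and lowest in Control 17, in normalized reads and per kilobase.

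S100a8 (chromosome 3, 90668978 to 90670035, plus strand) and S100a9 (chromosome 3, 90692632 to 90695721, minus strand) are neighbours. Chromosome 3 held 11.6% ± 1.80 of the reads with 5.01% of the listed genes. The S100 list had 8 of 14 members in the table, of which 4 had a mean of 500 normalized reads or more. S100a11, which binds annexins, followed at a level per kilobase of 16734 ± 1849, and S100a6 stood at 3342. The remaining listed members, S100a13, S100a1, S100a10 and S100a3, were at or below 66.7 per kilobase. The list held 8.65% ± 1.89 of the reads, with a lowest, median and highest share of 6.28%, 8.34% and 11.3%, and 28.3% ± 4.09 of the total per kilobase. In these bulk samples, fewer cells of a type and less RNA per cell cannot be told apart for this or any other difference between libraries.

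The stretches of 150 bases just before the RefSeq start (build GRCm38.p6) are printed for the leading pair and for Dusp1, the gene whose spread between libraries exceeded that of like genes most (below). Capitals mark an exact match to TATAAA, the TATA box, or to TGACGTCA, the cAMP response element bound by CREB. S100a8 is read from chr3:90668921-90669070 on the plus strand, S100a9 from chr3:90695722-90695871 on the minus strand and Dusp1 from chr17:26508473-26508622 on the minus strand.
S100a8: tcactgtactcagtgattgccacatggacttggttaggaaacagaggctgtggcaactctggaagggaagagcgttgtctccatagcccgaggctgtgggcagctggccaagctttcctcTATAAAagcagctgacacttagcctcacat
S100a9: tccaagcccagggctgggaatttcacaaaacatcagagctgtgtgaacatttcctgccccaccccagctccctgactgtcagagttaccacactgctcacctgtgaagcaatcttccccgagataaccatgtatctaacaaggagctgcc
Dusp1: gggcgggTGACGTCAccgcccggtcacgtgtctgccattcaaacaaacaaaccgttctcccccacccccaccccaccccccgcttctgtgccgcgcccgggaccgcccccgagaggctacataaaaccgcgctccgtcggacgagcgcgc
The TATAAA of S100a8 begins 30 bases before the start. That of S100a9 begins at the start itself (position 1), so it lies outside the printed stretch. The element of Dusp1 begins 143 bases before the start.

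Over the window of 250 bases before to 50 after the start, TATAAA on either strand was found in 22 of the 80 promoters matched for the 100 genes of highest level per kilobase (27.5%), against 569 of the 8020 matched for all listed genes (7.09%) and 218 of 2871 for genes whose mean was at least 500 (7.59%). Within 45 to 20 bases before the start, the usual place of a TATA box, the shares were 8.75% and 1.42%. Among the same 80 promoters, GAGGAAGT, a form of the site of the myeloid factor PU.1, was found in 7.5% (all listed genes: 3.60%), TGANTCA, the AP-1 site, in 7.5% (4.86%), TGACGTCA in 2.5% (3.45%) and TTGCGCAA, the C/EBP palindrome, in 0 of 80 (0.374%). Each was sought on both strands, and no stretch can match TGANTCA and TGACGTCA in full at the same start. A match describes the letters only. The 100 leading genes per kilobase were also shorter, with a median merged exon length of 1846 bases against 3862 for all listed genes.

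Below the S100 pair, the order per kilobase ran through secreted proteins, an adaptor and the cytoskeleton. Retnlg, a secreted resistin-like protein of granulocytes, came next at 29898 ± 9989, with a lowest, median and highest value of 18189, 31955 and 42621. Tyrobp, the adaptor also known as DAP12 that signals for paired receptors, stood at 25570 ± 3362, and Lyz2, the lysozyme of myeloid cells, at 23938 ± 2527. The ranges of Retnlg, Tyrobp and Lyz2 overlap, so their order is not settled. Tmsb4x, which encodes the actin-binding thymosin beta, stood at 19257 ± 586, with the 6 libraries between 18185 and 19752, and S100a11 followed it.

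The next genes in order were Ftl1 (10524 ± 947), the ferritin light chain that stores iron, Ccl6 (9437 ± 619), a chemokine, H2-D1 (9331 ± 1356), a heavy chain of MHC class I, Slpi (8338 ± 1313), an inhibitor of neutrophil elastase, and Il1b (7888 ± 946), the cytokine interleukin-1 beta, all as levels per kilobase. The ranges of neighbours among these 5 overlap. Of the remaining markers given for the cells, Csf3r, the receptor for granulocyte colony-stimulating factor, was 17th in order at 5129 ± 1279, and Cxcr2, the receptor for CXC chemokines that draws neutrophils out of the marrow, was at rank 59 with 1903 ± 243. All 5 markers (S100a8, S100a9, Csf3r, Cxcr2 and Retnlg) were among the 100 highest genes, and none of them goes against the label of the cells. Some counts near the top are uncertain because the genes share stretches of 50 bases with other genes. Among them, the shared part was 96.6% for Lilrb4a, 89.3% for Hba-a2, 72.3% for Hba-a1, 58.4% for Ftl1 and 53.2% for Hbb-bs. It was 48.5% for Ifitm2, 48.1% for Ubb and 41.1% for S100a11.

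**Figure D2:**
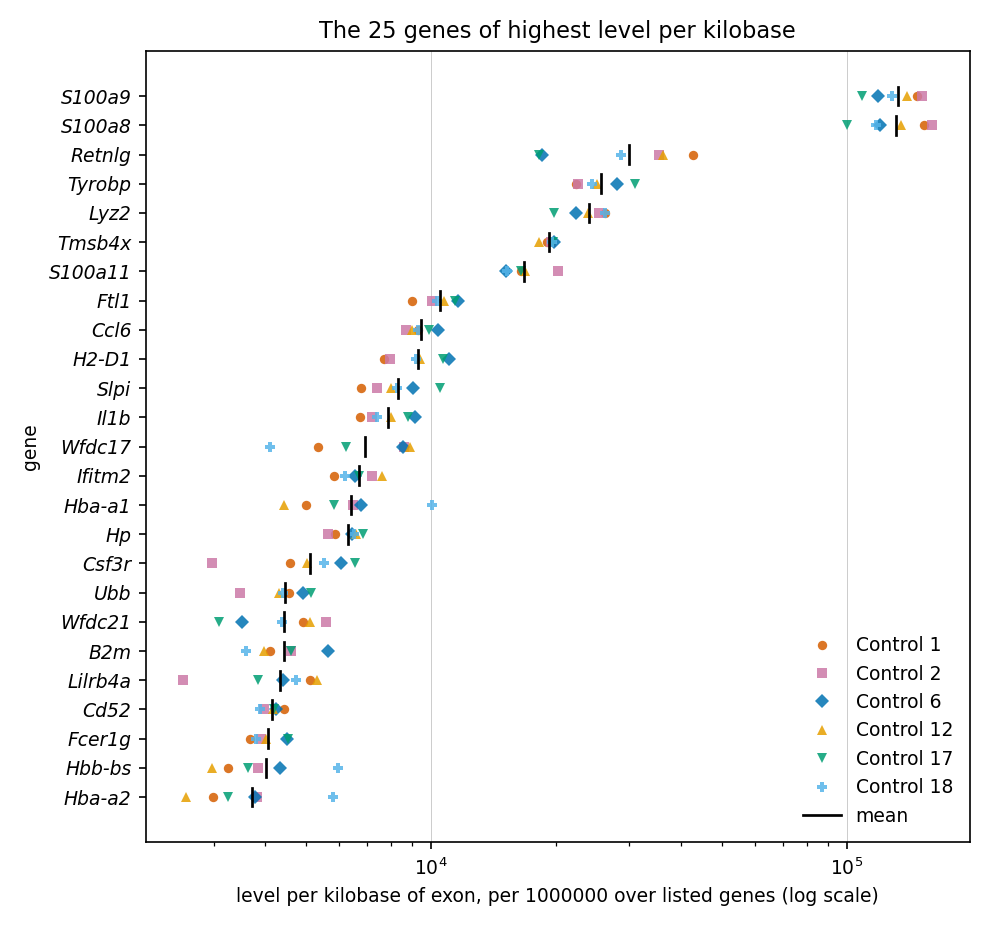
Level per kilobase of exon, scaled to 1000000 over listed genes (x axis, log scale), of the 25 highest genes (y axis), with 1 point per control library and a bar for the mean. S100a9 and S100a8 stand above 99762 in every library, and Csf3r and Lilrb4a show 1 library, Control 2, well below the others.

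Granule and secreted proteins spanned a wide range of levels. The 11 secreted proteins of mature neutrophils held 3.10% ± 0.339 of the reads and 6.34% of the total per kilobase, with Wfdc17, a small protein of the whey acidic family, next after Retnlg and Slpi. The 10 listed genes of gelatinase granules and matrix proteases held 1.16% ± 0.123, led by Mmp9, the gelatinase itself, at a level per kilobase of 3434 ± 399. The 15 genes of secondary granules held 0.949% ± 0.211. Mmp8, the neutrophil collagenase, is counted in this list and in that of matrix proteases, so their shares overlap. It led the secondary granule genes at 2348 ± 845 per kilobase, before Anxa1 (1817), Pglyrp1 (1328), which encodes a peptidoglycan-binding protein, and Lcn2 (1091 ± 277), which binds bacterial siderophores. Ltf, the gene of lactoferrin, the best-known protein of these granules, was lower: it had a lowest, median and highest value of 1.28, 106 and 232 normalized reads, and Camp, the cathelicidin, of 2.15, 41.9 and 229. Primary granule genes held 0.0643% ± 0.00981, with 7 of 13 in the table and most of that share from Hexa and Cd63, which lysosomes share. Prtn3, proteinase 3 of primary granules, was above 0 in 2 libraries, at up to 29.0 normalized reads.

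Lists of surface receptors, with their adaptors and signalling chains, are given next as shares of reads. The Fc, lectin and paired receptors (33 of 38 in the table) held 3.40% ± 0.190, led by Tyrobp, Lilrb4a and Fcer1g, the shared signalling chain of Fc receptors, at 4066 per kilobase. The cytokine and growth factor receptors (30 of 33) held 1.84% ± 0.200, led by Csf3r and by Il1r2 (1789 ± 365 per kilobase), a decoy receptor for interleukin-1. The integrin and selectin list (22 of 25) held 1.43% ± 0.0862, led by Selplg (1887 ± 315), the ligand of P-selectin, and Itgb2 (1393 ± 163), the beta chain of the leukocyte integrins. The chemoattractant receptors (15 of 22) held 0.949% ± 0.0292, with a small relative spread (CV 3.07%). C5ar1, the receptor for the complement fragment C5a, stood at 2158 ± 107 per kilobase, Fpr1, for formyl peptides, at 1952 ± 227, and Ccr1 at 1210 ± 84. Cxcr4, the receptor that retains neutrophils in marrow, stood at 90 ± 30. The Toll-like receptor list (20 of 24) held 0.372% ± 0.0309, led by the adaptor Myd88.

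The actin cytoskeleton, which drives crawling and phagocytosis, was the second largest list, at 6.76% ± 0.187 of the reads from 55 of 56 members. Its share varied little, from 6.58% in Control 17 to 7.07% in Control 12 (CV 2.77%). After Tmsb4x, the highest levels per kilobase were those of Arhgdib (2855), Pfn1 (2530), profilin, Coro1a (2516), coronin, Actg1 (2245) and Actb (2204). The NADPH oxidase, the enzyme of the respiratory burst, held 0.852% ± 0.0313 from 10 of 10 genes (CV 3.67%). Within it the levels were unequal: Cyba, the small membrane subunit, stood at 2920 ± 276 per kilobase and Rac2 at 2222 ± 197, whereas Cybb, the catalytic membrane subunit, stood at 73 ± 27.

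Il1b held most of the 1.08% ± 0.0555 of its list, and the next member, Nfkbia, the inhibitor of NF-kappa-B, stood at 552 per kilobase. Il1f9, an interleukin-1 family cytokine counted with the secreted proteins, stood at 1272. Ccl6 held most of the 0.859% ± 0.0377 of the chemokine list, where Ccl4 followed at 149. The class I antigen presentation list held 1.79% ± 0.184, and the interferon-stimulated genes held 1.44% ± 0.103, led by Ifitm2 (6697) and Slfn2 (2457). Immediate early genes held 1.41% ± 0.336, led by Dusp1 (2403 ± 1970 per kilobase), a phosphatase of MAP kinases, Junb (2209 ± 370) and Fos (1679 ± 375). The granulocyte transcription factors held 1.03% ± 0.0995, led by Mxd1 (1387), which opposes Myc, and Spi1 (980), which encodes PU.1. Irf8 and Cebpa, factors of earlier progenitors, had means of at most 17 normalized reads.

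Glycolysis and glycogen genes held 2.23% ± 0.0970, led per kilobase by Taldo1 (3125), transaldolase of the pentose phosphate pathway, Pkm (1302) and Aldoa (1098). The 83 nuclear-encoded genes of the respiratory chain together held 0.619% ± 0.0203, and the 12 listed genes of the mitochondrial genome held 0.0562% ± 0.0113. The gene mt-Co1 made up 49.5% of the mitochondrial list. It shares 51.1% of its stretches of 50 bases with other genes, so its count and the share of the list are uncertain. The 88 cytosolic ribosomal protein genes held 0.669% ± 0.0442, from 0.620% to 0.733%. Retnlg alone had a higher mean, 0.892% ± 0.342, but its range of 0.488% to 1.31% overlaps theirs. In Control 17 Retnlg held 0.488%, less than the 0.708% of the ribosomal list. Rps27, at 774 per kilobase, was the highest of the ribosomal genes. Some of their counts, that of Rps27 included, are uncertain because the genes share stretches of 50 bases with other genes. The shared part was 33.1% for Rplp0 and 8.62% for Rps9, against 0 for Retnlg. Cell cycle genes held 0.106% ± 0.00929, with 21 of 40 in the table. Hmgb2, a chromatin protein, led them, and Mki67, the proliferation marker, had a lowest, median and highest value of 64.1, 178 and 387 normalized reads.

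**Figure D3:**
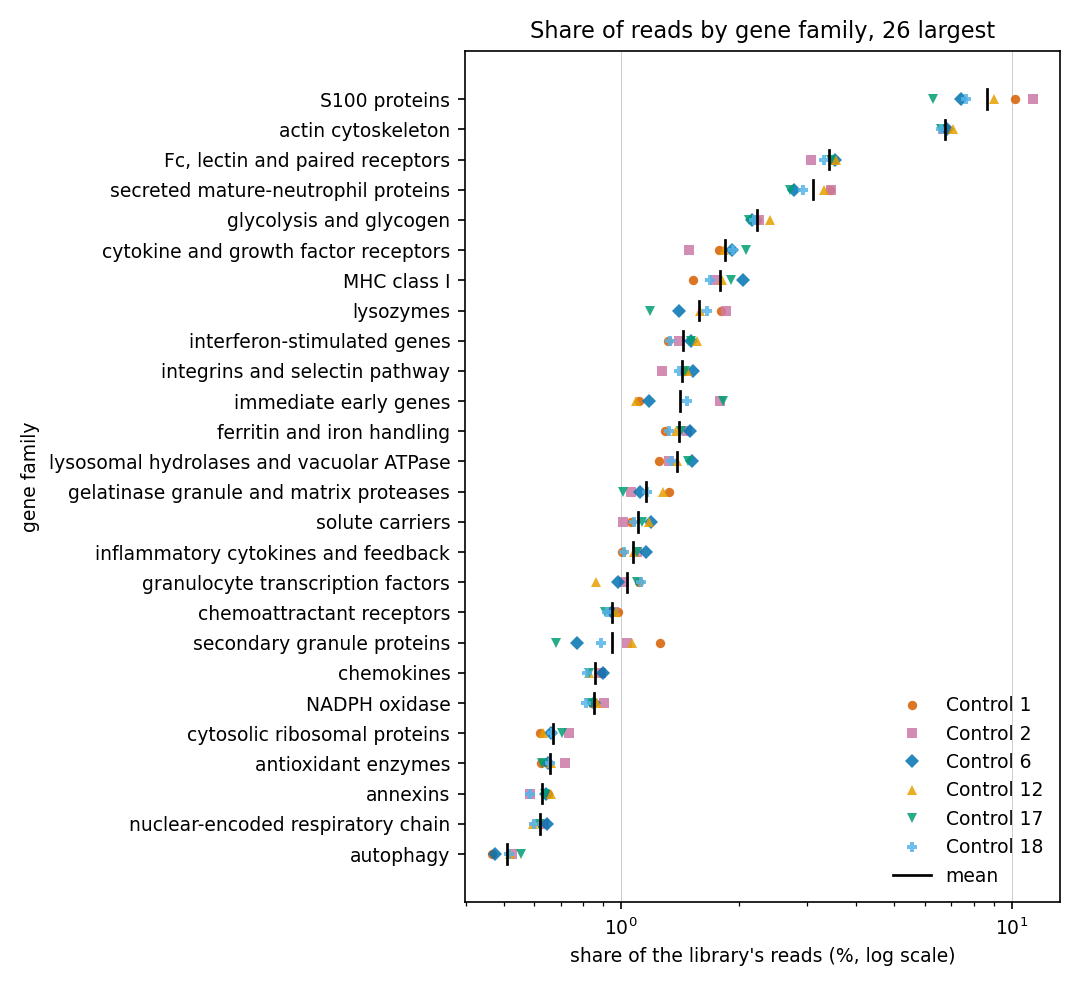
Share of a library's reads (x axis, percent, log scale) held by the 26 gene families with the largest mean share (y axis), with 1 point per control library and a bar for the mean. The S100 proteins lead with 6.28% to 11.3%, the actin cytoskeleton follows within 6.58% to 7.07%, and the S100, secondary granule and immediate early lists show the widest horizontal spread among the larger lists.

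Lists of markers of other blood cells were summed in the same way. The monocyte list (9 of 20 in the table) held 0.203% ± 0.0357, from 0.172% in Control 1 to 0.272% in Control 2. Lgals3 led it, and Csf1r, the gene of the CD115 protein gated out, had a lowest, median and highest value of 5850, 9919 and 11687 normalized reads. Csf1r shares 14.3% of its stretches of 50 bases with Hmgxb3, so its count is uncertain. Of the 9, 8 were above 0 in all 6 libraries and 7 had a mean of 500 or more, and F13a1 was at 0 in all 6. The erythroid list (12 of 20) held 0.609% ± 0.172, from 0.438% in Control 12 to 0.909% in Control 18, and consisted almost wholly of globin transcripts. Of the 12, 10 were above 0 in all 6 libraries and 7 had a mean of 500 or more. Tfrc, which dividing red cell precursors need, was above 0 in 2 libraries, at up to 10.5 normalized reads.

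The B cell list (15 of 16) held 0.0421% ± 0.00993, of which Ighm made up 70.7%. Of the 15, 5 were above 0 in all 6 libraries and 2 had a mean of 500 or more. Cd79b, Ms4a1 and Pax5 were at 0 in Control 1 and Control 2. The T cell list (7 of 19) held 0.00221% ± 0.000783, the natural killer list rested on Nkg7 in 1 library, and the endothelial and stromal list on Flt1. The platelet list (14 of 16) held 0.0301% ± 0.00898, most of it from Rap1b, which neutrophils also express. Of the 14, 6 were above 0 in all 6 libraries and 1 had a mean of 500 or more. The eosinophil list (3 of 10) held 0.00713% ± 0.00188, nearly all from Siglecf, listed as Siglec5 (696 to 1462 normalized reads). The basophil and mast cell list (7 of 10) held 0.177% ± 0.0238, of which Hdc, the histidine decarboxylase that neutrophils can express, made up 99.5%, and Mcpt8, the basophil protease, was above 0 in 1 library. The MHC class II list (9 of 15) held 0.0193% ± 0.00535. Immature granulocyte markers (9 of 16) held 0.0257% ± 0.0148, of which Ngp made up 63.9%. Of the 9, 7 were above 0 in all 6 libraries and 1 had a mean of 500 or more.

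Spread between the control libraries was measured as the coefficient of variation (CV, the SD over the mean of the deposited normalized reads in 6 libraries) and read only for the 3606 genes whose mean was at least 500, which held 94.2% of the reads. Their median CV was 31.2%, and counting alone would give a median of 2.78%. The ratio of these values within a gene had a median of 12.7. The counting value treats each read as independent. Since the cDNA was amplified, it leaves out the error from sampling molecules before amplification, which was not measured. The CV fell with level: the median was 43.4% for means of 500 to 1000, 25.5% for 2000 to 5000 and 8.35% for the 33 genes at 50000 or more. Of the 3606 genes, 1293 (35.9%) stayed within 2-fold across the 6 libraries, and 263 spanned more than 10-fold. Without Control 1, 2 and 12, the libraries with the most genes at 0, the median CV of the other 3 was 19.1%. For single genes, a spread without those 3 libraries is given below only for Cxcr2 and Dusp1. It was also computed for Gnai2, Mmp8, Retnlg, Ngp, Csf3r and the S100 pair, and is not given here.

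Because CV depends on level, each gene was set against the median CV of the 200 genes nearest to it in mean. By this measure 278 of the 3606 genes (7.71%) had a CV under 0.5 times that of like genes and are called stable here, and 132 (3.66%) had a CV over 2 times that of like genes and are called variable. The count of variable genes was 202 without Control 1, 204 without Control 2 and 352 without Control 1, 2 and 12 together, and 87 of the 132 kept the name without Control 2 and 69 without the 3. Without the 3, 648 genes were stable. A CV from fewer libraries is less precise, so more genes can pass either cut-off. These counts are therefore not comparable with those from all control libraries. Stable genes had shorter exons, with a median length of 3180 bases against 4548 for the 3606, and 5.76% of them were pseudogenes against 0.860% of the 3606. Of the genes in the shortest group of exon length, 12.1% were stable, against 4.41% in the longest.

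**Figure D4:**
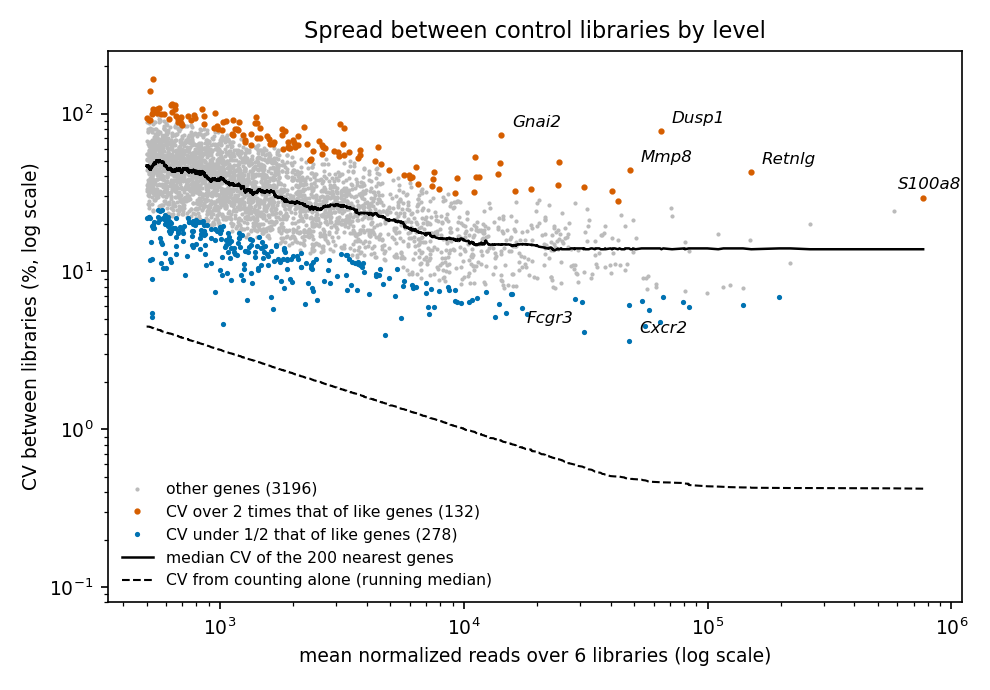
CV between the 6 control libraries (y axis, percent, log scale) against the mean of normalized reads (x axis, log scale) for 3606 genes, with the median CV of the 200 nearest genes (solid line) and the CV from counting alone (dashed line). Dusp1, Gnai2, Mmp8 and Retnlg lie far above the solid line, and Cxcr2 and Fcgr3 lie far below it.

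Beside the 7.71% of all 3606 genes, the stable genes with a mean of 500 or more numbered 2 of 32 among the Fc, lectin and paired receptors, 1 of 10 among the chemoattractant receptors, 1 of 22 among the cytokine receptors, 2 of 14 in the integrin and selectin list, 0 of 13 in the Toll-like receptor list and 6 of 52 in the actin list. Cxcr2 had the lowest CV of all 3606 genes, 3.63%, with a lowest, median and highest value of 45241, 47494 and 50202 normalized reads. Fcgr3, a low-affinity Fc receptor for immunoglobulin G, had a CV of 4.14% (29184 to 32633 normalized reads). Arpc1b, a subunit of the Arp2/3 complex that branches actin, had a CV of 4.51%, and Lsp1, an actin-binding protein of leukocytes, of 4.79%. Napa, which helps take apart the SNARE complexes of membrane fusion, stood between 4521 and 4960 normalized reads (CV 3.96%), and Ucp2, a carrier of the inner mitochondrial membrane, between 16422 and 19244 (CV 5.34%). These values depend on the deposited scaling. On the scale per kilobase, where the S100 pair take a large and varying part of the total, Cxcr2 ranged from 1588 to 2293, and its CV was 0.449 times that of like genes with scaling to the library total, against 0.259 as deposited. Without Control 1, 2 and 12 that ratio was 0.663.

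Of 62 cytosolic ribosomal protein genes with a mean of 500 or more, 18 were stable and 0 were variable, with a median ratio to the CV of like genes of 0.620. Of 54 respiratory chain genes at that level, 14 were stable and 0 variable. These counts stand beside 7.71% stable and 3.66% variable among all 3606 genes, and the part in them of exon length, which was shorter in stable genes, was not tested. Atp5g3, a subunit of the ATP synthase ring, stood between 491 and 556 normalized reads, a CV of 5.16% that is 0.111 times that of like genes and the lowest such ratio of all.

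Common reference genes spread unequally. Ywhaz, a 14-3-3 protein, ranged from 8782 to 10444 normalized reads (CV 6.37%), and Ubb, a ubiquitin gene, from 56288 to 69529. Gapdh had a CV of 15.0%, B2m of 17.8% and Actb of 21.3%. Pgk1, a glycolytic kinase, reached 60.7%, with 3998 normalized reads in Control 1 and 881 in Control 6, and Hprt reached 59.0%, both at lower means. Some of these counts are uncertain because the genes share stretches of 50 bases with other genes. The shared part was 53.9% for Pgk1, 48.1% for Ubb, 25.1% for Gapdh, 15.2% for Ywhaz and 9.12% for Actb. It was 0 for B2m and Hprt.

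Among the 132 variable genes, Control 2 was the highest library for 61, Control 1 for 28, Control 17 and Control 18 for 17 each, Control 12 for 8 and Control 6 for 1. Among all 3606 genes Control 2 was the highest for 971 (26.9%) and Control 1 for 872 (24.2%). For 44 of the 132 (33.3%) Control 2, 17 and 18 were the 3 highest libraries, as they were for 7.13% of the 3606 genes. Since the 132 were chosen for their spread in these libraries, these counts are descriptions. Dusp1 led this set. It had 44783 normalized reads in Control 1, 107165 in Control 2, 11132 in Control 6, 6984 in Control 12, 120842 in Control 17 and 96786 in Control 18. Its CV of 77.6% was 5.62 times that of like genes, and Control 2, 17 and 18 did not overlap with the other 3. Without Control 1, 2 and 12 the ratio was 9.12.

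Gnai2, the inhibitory G protein subunit that couples chemokine receptors to their signal, ranked next, with 25729, 24043 and 20484 normalized reads in Control 2, 17 and 18, and 9214, 3286 and 2819 in Control 1, 6 and 12. Cebpd, a C/EBP transcription factor of the acute phase, shares 13.7% of its stretches of 50 bases with Spidr, so its count is uncertain. It spanned 383 in Control 12 to 6642 in Control 17. Rsrp1, a nuclear protein rich in arginine and serine, spanned 6619 in Control 12 to 35864 in Control 18. Emilin2, a protein of the extracellular matrix, spanned 5196 to 23626 in the same order as Dusp1 at its extremes. Jun, a subunit of AP-1, stood at 321 in Control 12 and 3802 in Control 2. Not all immediate early genes followed: Fos was highest in Control 6, at 41304, and lowest in Control 18, at 22397, and Junb lay between 34717 and 45490 with a CV of 11.2%. Of the 20 immediate early genes with a mean of 500 or more, 4 were variable, beside 3.66% of all 3606 genes.

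Control 1, 2 and 12, the 3 libraries with the most genes at 0, were the 3 highest for 14 of the 132 variable genes (10.6%), close to the 8.40% among all 3606. The 14 are described here for their roles, not as a set of their own, and they included the granule and secreted proteins Mmp8, Ngp, Retnlg, Lcn2, Cd177 and Wfdc21, and S100a8. Mmp8 had 84120 normalized reads in Control 1, 54045 in Control 2, 51093 in Control 12, 44944 in Control 18, 32765 in Control 6 and 22580 in Control 17. Control 18 lay close to Control 12, so the 2 sides were not far apart. Retnlg had 230499, 203567 and 181961 in Control 1, 2 and 12, and 77462 to 129394 in the other 3. Ngp, an antimicrobial protein of secondary granules, spanned 416 in Control 17 to 7363 in Control 12, and Lcn2 12517 in Control 17 to 34500 in Control 2. Cd177, a surface protein of secondary granules that pairs with an integrin, spanned 4861 in Control 17 to 14686 in Control 1. Of the 11 secondary granule genes with a mean of 500 or more, 5 were variable and 0 were stable, beside 3.66% and 7.71% of all 3606 genes. Not all late products varied in this way: Mmp9 had a CV of 7.29% and Hp, haptoglobin, of 5.93%. Of the 11 secreted proteins of mature neutrophils at that level, 3 were variable and 1 was stable. Of the 8 genes of gelatinase granules and matrix proteases at that level, 1 was variable and 0 were stable.

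**Figure D5:**
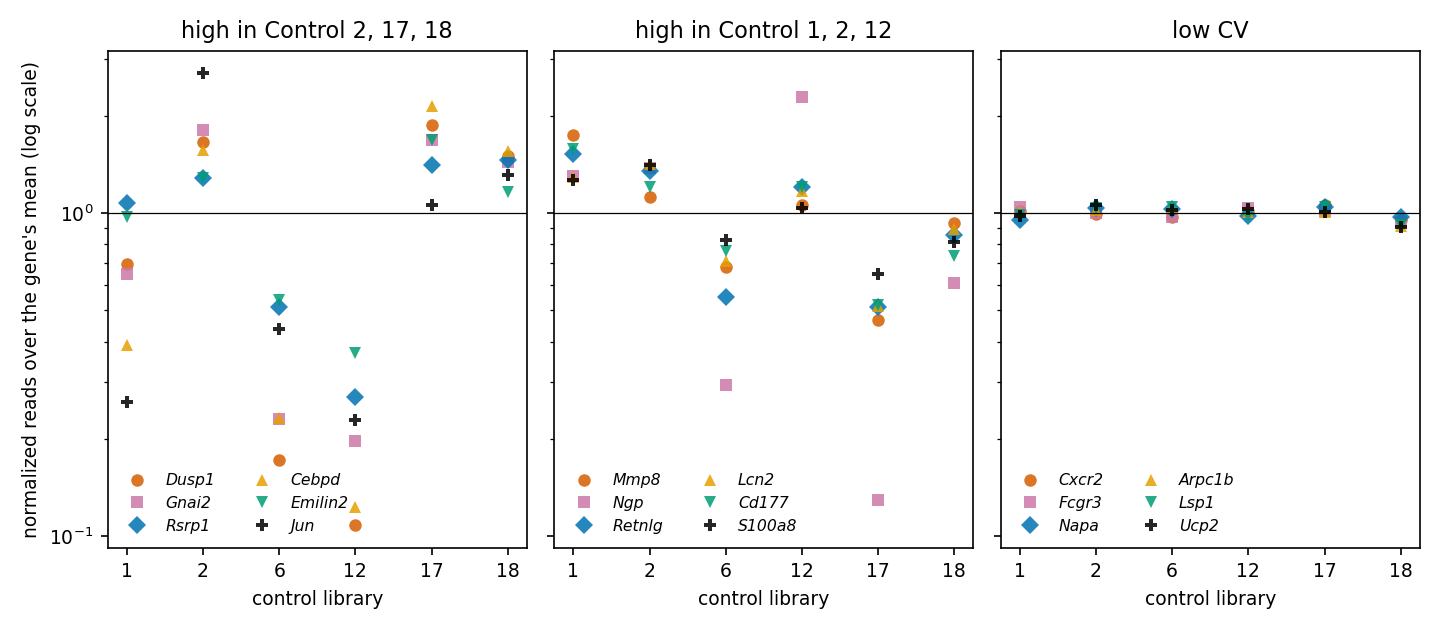
Normalized reads of a gene over its mean in the 6 control libraries (y axis, log scale) by library (x axis), for 6 genes high in Control 2, 17 and 18, 6 high in Control 1, 2 and 12, and 6 of low CV. The genes of the first panel, chosen for this pattern, lie below 1 in Control 6 and 12, those of the middle panel lie below 1 in Control 6, 17 and 18, and those of the last panel stay close to 1.

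Other genes stood high in 1 library alone. In 41 of the 132 variable genes (31.1%), and in 119 of all 3606 (3.30%), the highest library exceeded 2 times the next. That library was Control 2 for 66 of the 119 and Control 1 for 39. Rhot1, a GTPase of the outer mitochondrial membrane, had 2310 normalized reads in Control 1 and 7.69 to 328 in the other 5. Usp25, a deubiquitinase, had 2151 in Control 2 and 202 to 509 elsewhere, and Sh2b2, a signalling adaptor, 1945 in Control 2 and 92.6 to 474 elsewhere. Mcl1, the survival factor on which neutrophil lifespan depends, was also highest in Control 2, with 22509 normalized reads there, 11787 in Control 6 and 6360 to 9630 in the other 4, but fell short of 2 times the next. At the level of the table, Control 2 exceeded 2 times the median of the other libraries for 364 of the 3606 genes (10.1%) and lay under 0.5 times that median for 496 (13.8%), against 52 and 192 in Control 6.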

How the data were processed

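Each library came from sorted blood neutrophils. The authors deposited 1 table holding a normalized signal for every gene in every library, and its unit is not named there. In each of the 6 control libraries 100.0% of the values above 0 were whole multiples of a single step (tolerance 0.02 reads). Read counts had thus been divided by a factor for the library, and shares were computed from the recovered reads. Per the submitters' processing notes, the tools were STAR 2.5.2b, Trimmomatic 0.36, bcl2fastq 2.17 and Subread 1.5.2 with featureCounts, and the builds GRCm38 and mm10. Exon lengths came from GENCODE vM21, which holds 11475 of the 11494 identifiers. Names turned into dates (16) were restored through identifiers.

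No groups were compared, and the only test was Dixon's, for a library that stands apart. Each value is a mean ± SD over 6 libraries. The cut-off for variable genes was run on simulated counts, and that for stable genes was not. The run does not tell how many genes were called in error in these libraries. Python 3.11.15, edgeR 4.0.16 and DESeq2 1.42.0 (factors and dispersions only) were used. Alternatives were pooled reads, values per kilobase, other factors, filters and pseudocounts, and libraries left out. Chosen after seeing the data were exon lengths of the basic set, protein-coding genes only, the list of reference genes, and shares and ranking without Control 1, 2 and 12. Named genes are the 25 highest per kilobase and by reads, the 12 of lowest CV, of highest CV and of highest ratio, 3 per family with further members as examples of a role, and the markers. Any other gene was named after its values were seen. Members and lists were chosen with earlier results of these data known.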

Additional observations from a re-analysis of the deposited data

Results flagged for a closer look

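For 130 items (named genes in normalized reads, and lists in percent of reads) the highest or lowest of the 6 control libraries was set against the others. Its gap to the nearest library, as a part of the whole range, exceeded the critical value of the Dixon test for 18 items (13.8%). Chance gives about 1 in 20 for items chosen without regard to their values. Rhot1, Sh2b2, Usp25, Clcn7, Pes1, Arhgap5, Rcbtb2 and Mcl1 had been named for their high spread in these libraries, so the 13.8% cannot be read against that rate. Control 2 was the library apart for 10 of the 18, Control 1 for 4, Control 18 for 2, and Control 6 and Control 12 for 1 each.

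Csf3r, the receptor for granulocyte colony-stimulating factor, was lowest in Control 2, at 104006 normalized reads against 150611 to 170629 elsewhere (gap 0.700). Without Control 2 its CV was 0.489 times that of like genes, against 1.15 with all 6. Lcp1, the actin-bundling plastin of leukocytes, was also lowest there, at 74834 against 110600 to 130799 (gap 0.639). Fth1, the ferritin heavy chain, was highest in Control 2, at 104945 against 75405 to 86356 (gap 0.629), and so was Mcl1 (gap 0.664). Genes of lower level highest in Control 2 were Usp25 (gap 0.842), Sh2b2 (gap 0.794), Rcbtb2, at 1576 against 90.7 to 544 (gap 0.695), and Arhgap5, at 1679 against 2.15 to 554 (gap 0.671). The stefin and cystatin list, which encodes inhibitors of cysteine proteases, was highest there, at 0.236% of the reads against 0.183% to 0.199% (gap 0.686), and so was the monocyte and macrophage list (gap 0.664).

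Control 1 was highest for Rhot1 (gap 0.861), for Pes1, a ribosome assembly factor, at 1745 normalized reads against 0.916 to 491 (gap 0.719), and for Clcn7, a lysosomal chloride transporter, at 2043 against 6.41 to 609 (gap 0.704). It was lowest for the primary granule list, at 0.0458% of the reads against 0.0642% to 0.0732% (gap 0.673). Control 18 was lowest for Arpc1b, at 50661 against 55817 to 57880 (gap 0.714), and highest for Tfrc, at 10.5 against 0 to 1.08 (gap 0.898). Control 6 was highest for Hnrnpa2b1, a splicing factor, at 6045 against 5224 to 5519 (gap 0.641). Control 12 was lowest for Ppia, cyclophilin A, at 771 against 1067 to 1245 (gap 0.625). Arpc1b and Hnrnpa2b1 stayed within a narrow range even so, since both are among the 12 genes of lowest CV.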

How the results depend on the processing

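Values per kilobase changed the shares most: the first 10 genes then held 40.8%, the first 100 held 63.2%, the S100 list 28.3%, the actin cytoskeleton 5.21% and the ribosomal proteins 0.875%, and 36 of 41 families moved by more than 1 SD. None of the families did with pooled reads or without the mitochondrial genes. None did without any 1 library or without Control 1, 2 and 12, but these settings cannot show that the shares are robust. Whatever the values, leaving out so few libraries cannot shift a mean by 1 SD of all control libraries. Ranked by reads, 16 of the 25 leading genes remained. The median CV was 53.0% for means of 50 or more, 68.5% with no filter, 38.7% by edgeR's tagwise dispersion, 19.1% without Control 1, 2 and 12, and 26.7% to 32.1% without 1 library. Variable genes numbered 251, 260, 82 and 352 under the first 4 of these settings and 142 to 204 without 1 library, and 31 of the 132 were among the 82. They numbered 412, 414 and 410 from the SD of log2 values with pseudocounts of 1, 0.5 and 5, of which 109 were among the 132. Stable genes numbered 732, 1297, 0 and 648 under the same first 4 settings. Counts with libraries left out are not comparable with those from all control libraries, since a CV from fewer libraries is less precise. TMM, DESeq2 factors and scaling to the library total gave 134, 128 and 127 variable genes, of which 128, 124 and 110 were among the 132. Without 1 library, 87 to 118 of the 132 were called again. No paired analysis was possible because the control libraries form 1 group. At 13743581 reads or more in listed genes, 1384 of the 4483 genes with means of 50 to 500 were at 0 in a library, against 2 of the 3606 above. The median CV of the 4483 was 79.8%, against 7.83% from counting alone, and the cause was not tested.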
